A study of Mus musculus with 14 samples.

Results

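The translation initiation factors described here are the protein-coding genes whose symbols begin with Eif1 to Eif6, with the eIF2 kinase genes (Eif2ak) left out. The culture table held 50 of them among 20875 genes, and the mouse table held 49 among 18855. Of these, 49 were in both tables, and Eif4a3l2 was listed in culture alone, at 0.0633 to 0.521 TPM (a transcript level corrected for gene length and for the size of the library). That gene fell under the minimum mean level of 1 TPM, so 49 members were tested in each experiment. Eif2s3y, the Y-linked copy of the eIF2 gamma subunit gene, was not analysed here.

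RNA of mouse CD4 T cells labelled C57BL/6 was sequenced in 14 libraries. In culture, wild-type cells labelled as from lymph node were kept in medium (n = 2), given antibodies to CD3 and CD28 at 1 mg/ml (n = 3), or given those antibodies together with 10 ug/ml of the death ligand TRAIL (n = 3). The other 6 libraries were labelled as spleen CD4 T cells of mice, and all of these carry floxed alleles of the TRAIL receptor by their labels: floxed mice given vehicle (n = 1), floxed mice given TRAIL (n = 3), and floxed mice that also carry Lck Cre and were given TRAIL (n = 2). Lck Cre is a recombinase driven by the promoter of the T cell kinase gene Lck. The labels state neither doses nor ages for the mice, and the vehicle library also bears the name B6, so its genotype is uncertain. The title of Lck Cre replicate 1 gives TRAIL, but its library name lacks the TRAIL tag that replicate 2 carries, so its treatment is uncertain too. The culture library titled medium 2 is named medium_3, so its replicate number is uncertain as well. No label says that replicates came from separate animals or cultures, so p-values measure the spread between libraries, which may be technical.

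Initiation factors bring the small ribosomal subunit, the initiator tRNA and an mRNA together, find the start codon, and then allow the large subunit to join. The factor eIF2 carries the initiator tRNA and is recharged by the exchange factor eIF2B. The cap-binding protein eIF4E is held back by the 4E-binding proteins until the kinase complex mTORC1 phosphorylates them. Resting T cells translate little, and stimulation through the antigen receptor and CD28 raises protein synthesis.

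Read totals recovered from the tables were 23.0 to 32.3 M in culture and 19.2 to 56.9 M in the mouse experiment. Among the stimulated libraries, replicate 1 stood apart: its differences from the other stimulated libraries correlated with gene length (Spearman's rho −0.51 across 14035 genes, which are not independent replicates). The mouse libraries came from sequencing lanes 2 and 4, per their labels. T cell markers summed to 1961 to 2671 TPM in culture. B cell markers there summed to 1252 to 1268 TPM in medium, 191 to 236 TPM after stimulation and 1174 to 1201 TPM with TRAIL. These sums in medium and with TRAIL go against a pure CD4 T cell label. In the mouse libraries the 7 T cell markers summed to 291 to 1095 TPM, while the 6 neutrophil markers, among them S100a8, summed to 11273 to 79542 TPM, which goes against the CD4 T cell label. Tnfrsf10b, the mouse TRAIL receptor gene, was at 2.04 and 3.5 TPM in the libraries labelled Lck Cre, at 1.64, 1.46 and 2.31 TPM in floxed mice given TRAIL, and at 1.82 TPM with vehicle. Gene totals do not show whether the floxed part was removed.

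RefSeq promoter windows on GRCm38.p6, 250 bases before to 50 after a start, were matched for 38 of the 50 members. The 250 bases upstream are shown for examples picked by hand, namely the cap-binding protein gene Eif4e, the helicase pair Eif4a1 and Eif4a2, the translation factor gene Eif5a, and Eif4ebp2. These bases are written 5′ to 3′ on the strand of the gene, and capitals mark the E-box CACGTG, which MYC family proteins can bind. Eif4e lies on the plus strand at chr3:138527018-138527267, Eif4a1 on the minus strand at chr11:69672424-69672673, Eif5a on the minus strand at chr11:69921387-69921636, Eif4ebp2 on the minus strand at chr10:61452670-61452919, and Eif4a2 on the plus strand at chr16:23107218-23107467.
Eif4e: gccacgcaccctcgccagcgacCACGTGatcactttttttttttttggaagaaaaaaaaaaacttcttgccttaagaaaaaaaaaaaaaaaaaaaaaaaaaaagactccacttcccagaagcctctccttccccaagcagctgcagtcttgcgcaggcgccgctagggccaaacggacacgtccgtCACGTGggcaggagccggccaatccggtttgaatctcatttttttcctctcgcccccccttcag
Eif4a1: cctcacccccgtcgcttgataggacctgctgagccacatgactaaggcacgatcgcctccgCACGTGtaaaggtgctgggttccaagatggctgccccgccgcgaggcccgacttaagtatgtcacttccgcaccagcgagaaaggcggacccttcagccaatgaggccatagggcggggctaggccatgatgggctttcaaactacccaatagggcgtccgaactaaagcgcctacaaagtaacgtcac
Eif5a: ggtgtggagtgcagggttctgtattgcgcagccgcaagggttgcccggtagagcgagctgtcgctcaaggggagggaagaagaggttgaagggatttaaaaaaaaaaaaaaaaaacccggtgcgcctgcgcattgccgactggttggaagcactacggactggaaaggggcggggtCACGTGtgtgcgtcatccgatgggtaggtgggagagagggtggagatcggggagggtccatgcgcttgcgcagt
Eif4ebp2: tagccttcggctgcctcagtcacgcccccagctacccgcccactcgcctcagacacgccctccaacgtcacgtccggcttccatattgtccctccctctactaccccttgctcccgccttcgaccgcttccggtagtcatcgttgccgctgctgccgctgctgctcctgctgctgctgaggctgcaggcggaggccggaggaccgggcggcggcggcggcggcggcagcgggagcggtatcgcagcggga
Eif4a2: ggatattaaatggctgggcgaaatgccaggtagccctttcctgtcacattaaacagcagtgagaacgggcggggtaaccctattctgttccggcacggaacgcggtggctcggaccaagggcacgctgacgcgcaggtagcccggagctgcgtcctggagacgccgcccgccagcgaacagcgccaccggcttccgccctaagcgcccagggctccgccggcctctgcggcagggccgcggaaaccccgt

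In these windows Eif4e held an E-box whose first base is at −228 and another at −64, counted back from −1 at the base before the start. That window is 1 of 2 for Eif4e, and no E-box was found in the other. Eif4a1 held 1 at −189, and the Eif5a window, 1 of 6 for that gene and the one with an E-box nearest its start, held 1 at −74. The Eif4ebp2 and Eif4a2 windows held none. These examples do not stand for all members, whose calls in culture with and without an E-box window are given below. Both strands were searched, and CACGTG reads the same on each. Over all windows of a gene, 10 of 38 members (26.3%) held an E-box, beside 8.09% of the 27025 genes in the promoter table. These were Eif1b, Eif3a, Eif3f, Eif3k, Eif4a1, Eif4e, Eif4g1, Eif4h, Eif5a and Eif5a2. Per window the shares were 24% of 50 for the members and 7.15% of 32851 for all genes. The element TGATGNAA, a motif bound by ATF4, was in the windows of 1 of 38 members (2.63%), Eif2s3x, beside 4.51% of all genes. The 2 motifs did not occur in the same member. A match is a description of letters and was not tested for binding.

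Stimulation through CD3 and CD28 raised most initiation factor genes. Of the 49 tested, 36 were called higher and 5 lower than in medium, and 8 were not called, by limma with Benjamini-Hochberg adjustment over all 14035 genes at 0.05. Among all tested genes, 27.5% were called higher and 49.0% lower. At an unadjusted p under 0.05 there were 42 members, beside 78.1% of all genes. The members' median log2 fold change was 0.78, on the scale of log2(TPM + 1) used for every fold change here, and the median of all genes was −0.32. With libraries scaled by the median of ratios across genes, which moves the median gene to 0.04, 43 members were called higher and 1 lower, against 40.0% and 35.6% of all genes. Together the members made up 0.948% and 0.956% of all TPM in medium, 1.61%, 1.56% and 1.55% after stimulation, and 0.968% to 0.989% when TRAIL was added. In bulk RNA, fewer cells of a type and less RNA per cell cannot be told apart.

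**Figure D1:**
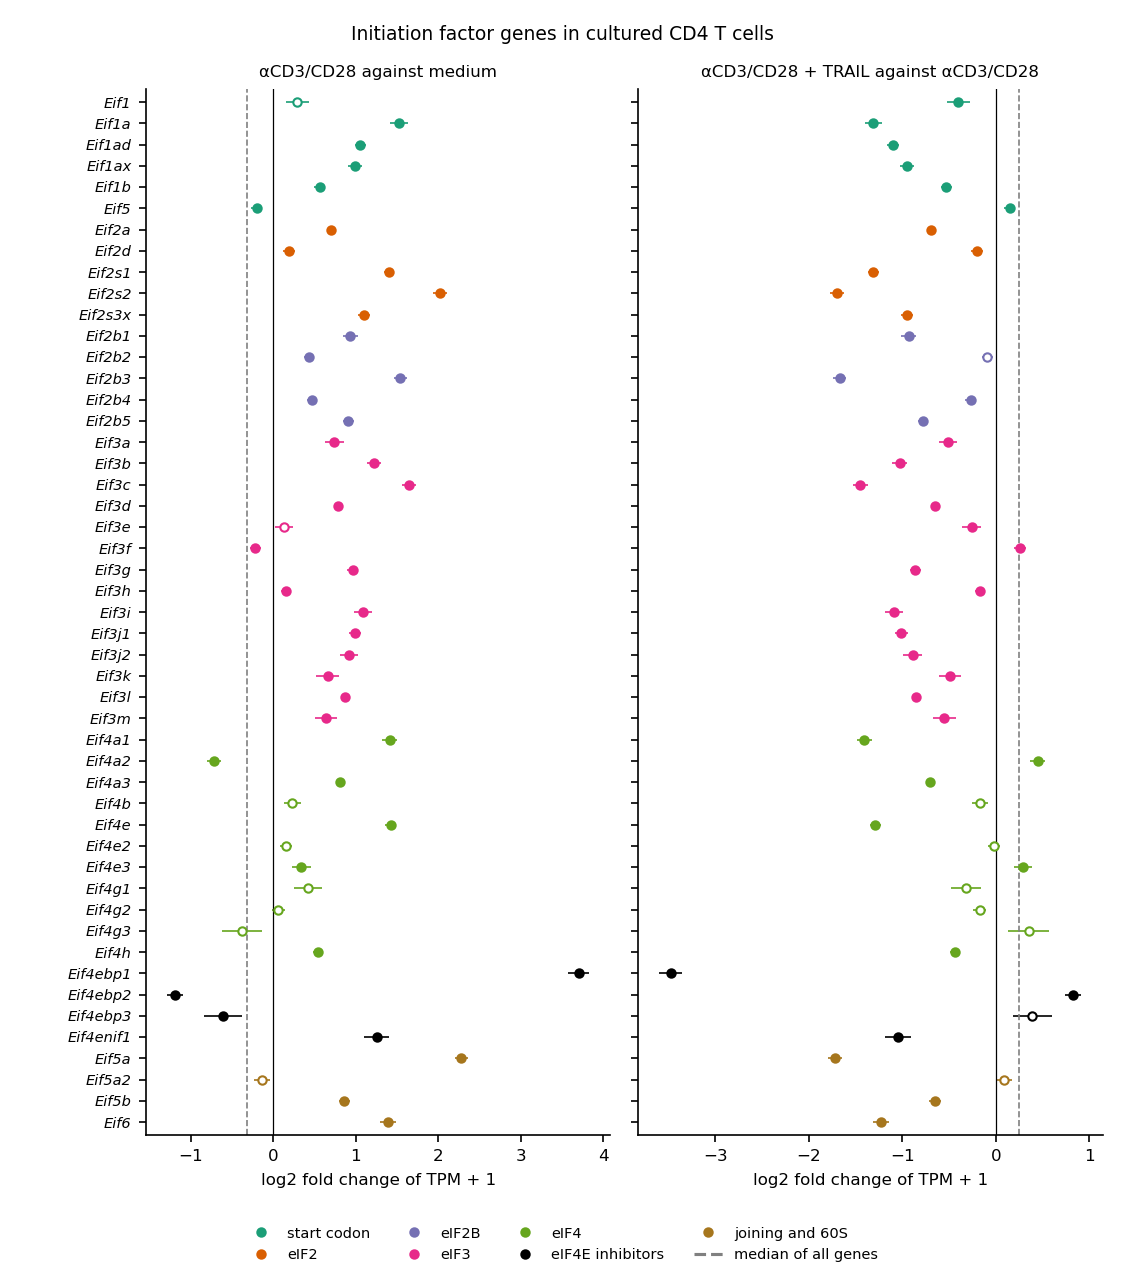
Log2 fold changes of TPM + 1 (horizontal axis) for the 49 tested initiation factor genes (rows, coloured by role), with SE bars, for stimulation against medium (left; n = 3 and 2) and TRAIL added to stimulated cells (right; n = 3 and 3). Filled points passed an adjusted p of 0.05, and the dashed line is the median of all genes tested, at −0.32 on the left and 0.25 on the right. Eif4ebp1 lies furthest from 0 in both panels, and both panels share the stimulated libraries.

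Of 6 genes for start codon selection, 4 were called higher after stimulation, 1 (Eif5) lower, and Eif1 was not called (0.29, SE 0.14, adjusted p = 0.0892 by limma). Eif1a, which encodes a copy of the scanning factor eIF1A, was at 65.3 and 68.6 TPM in medium and at 222, 183 and 180 TPM after stimulation, and returned to 83.6, 72.3 and 78.4 TPM with TRAIL. The stimulated libraries lay above all others for this gene, with a log2 fold change of 1.52 (SE 0.11, adjusted p = 4.11e-06). Eif5 encodes the GTPase activator of eIF2. It was at 397 and 373 TPM in medium, 316, 347 and 346 TPM after stimulation and 376, 363 and 379.5 TPM with TRAIL. Its log2 fold change was called at −0.20 on TPM as deposited (adjusted p = 0.0248), but with median-of-ratios scaling it was called at 0.20 in the opposite direction. The call was also lost with the 2 groups alone (adjusted p = 0.073), with the replicate block (adjusted p = 0.0513) and without medium replicate 1.

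All 5 genes of the eIF2 group and all 5 subunit genes of its exchange factor eIF2B were called higher after stimulation. Beside the subunit genes Eif2s1, Eif2s2 and Eif2s3x, the eIF2 group held Eif2a and Eif2d, which do not encode subunits of eIF2. Eif2s2, the beta subunit of eIF2, was at 96.1 and 95.8 TPM in medium and at 429, 369.8 and 383 TPM after stimulation. With TRAIL it was at 123, 114 and 126 TPM, between the other groups without overlap. The log2 fold change on stimulation was 2.02 (SE 0.080, adjusted p = 2.11e-07). Eif2s1, the alpha subunit that the eIF2 kinases phosphorylate, had a log2 fold change of 1.40, and the X-linked gamma subunit gene Eif2s3x one of 1.10. Eif2s3x was at 109.5 and 109 TPM in medium, 215, 247 and 244 TPM after stimulation and 123, 119 and 122 TPM with TRAIL. Eif2d, a factor that can deliver tRNA without eIF2, had the smallest change of the group, 0.19 (adjusted p = 0.0435). Its call was lost with the replicate number as a block (adjusted p = 0.11), with the 2 groups compared alone (adjusted p = 0.113), and without any 1 culture library other than replicate 1 of the stimulated group.

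Within eIF2B the subunits moved by unequal amounts. Eif2b3, the gamma subunit that works with the catalytic epsilon subunit Eif2b5, was at 13.5 and 13.7 TPM in medium and 44.3, 39.8 and 40.7 TPM after stimulation. It was back at 11.9, 12.7 and 12.7 TPM with TRAIL. Its log2 fold change was 1.54 (SE 0.077, adjusted p = 7.05e-07), beside 0.91 for Eif2b5, 0.93 for the regulatory subunit Eif2b1, 0.47 for Eif2b4 and 0.43 for Eif2b2. The TPM of Eif2b3 per TPM of Eif2b4, a ratio of length-corrected levels within a library, was 0.248 and 0.261 in medium, 0.518 to 0.615 after stimulation and 0.187 to 0.211 with TRAIL. The 3 groups did not overlap in this ratio.

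The 14 genes of eIF3, the large scaffold that binds the small ribosomal subunit, included 12 called higher, 1 called lower (Eif3f) and 1 not called (Eif3e). Eif3c, a core subunit, was at 277 and 268 TPM in medium, 754, 909 and 897 TPM after stimulation, and 313, 306 and 312 TPM with TRAIL. The stimulated libraries stood far above the others, and the log2 fold change was 1.64 (SE 0.086, adjusted p = 9.11e-07). Eif3f was at 296 and 315 TPM in medium, 279.8, 262 and 248 TPM after stimulation and 309.7, 315 and 324 TPM with TRAIL. It was called lower by 0.22 (log2 fold change −0.22, adjusted p = 0.0195), and with median-of-ratios scaling it was at 0.18 in the other direction and not called. That call was lost as well with the 2 groups alone (adjusted p = 0.0619), with the replicate block (adjusted p = 0.0695), and without medium replicate 2 or stimulated replicate 3. The other subunits called higher had log2 fold changes from 0.15 (Eif3h) to 1.22 (Eif3b). The call of Eif3h (adjusted p = 0.0472) was lost with the 2 groups alone (adjusted p = 0.106), with the replicate block (adjusted p = 0.127), without the filter, without the variance trend, and without any 1 culture library other than stimulated replicate 1. Eif3j1 and Eif3j2 are near-identical copies, as are Eif1a and Eif1ax, and how shared reads were divided is not given in the sources used here. In GENCODE vM21, 19 of the 50 members share exon bases with another gene, 7 of them over 10% of their exon bases, among them Eif3d with 43.3%, shared with an antisense gene. Whether counting used strand is not given either.

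The eIF4 group was drawn up by symbol. It includes the factors that bind the cap and unwind the leader, though not every member does so, and it was divided between close relatives. Of 11 tested genes, 5 were called higher (Eif4a1, Eif4a3, Eif4e, Eif4e3 and Eif4h), 1 lower (Eif4a2), and 5 were not called (Eif4b, Eif4e2, Eif4g1, Eif4g2 and Eif4g3). The call of Eif4e3 was lost with the replicate block (adjusted p = 0.0607). The helicase gene Eif4a1 was at 545 and 523 TPM in medium, 1618, 1347 and 1327 TPM after stimulation, and 538, 539 and 535 TPM with TRAIL. Its stimulated libraries did not overlap with the others, whereas the TRAIL values lay within the range in medium (log2 fold change on stimulation 1.41, SE 0.090, adjusted p = 2.49e-06). Its relative Eif4a2 was at 1059 and 975 TPM in medium, 689, 591 and 573 TPM after stimulation, and 859, 813 and 850.3 TPM with TRAIL. Here the stimulated libraries were the lowest, with a log2 fold change of −0.72 (SE 0.089, adjusted p = 1.19e-04). With median-of-ratios scaling it was −0.33 and no longer called (adjusted p = 0.0542).

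The balance within the helicase pair does not depend on scaling. Eif4a1 made up 34.0% and 34.9% of the summed TPM of Eif4a1 and Eif4a2 in medium, 70.1%, 69.5% and 69.9% after stimulation, and 38.5%, 39.9% and 38.6% with TRAIL. Eif4a2 was the most abundant member in medium (1017 ± 59.7 TPM, SD, n = 2), and Eif5a (2124 ± 154 TPM, SD, n = 3) and then Eif4a1 (1431 ± 163 TPM, SD, n = 3) led after stimulation. The neighbours Eif4a1 and Eif4b in medium, at 534 and 530.3 TPM, did not differ beyond their spread.

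Eif4g1, the scaffold of the cap-binding complex, was at 314 and 307 TPM in medium, 310.5, 489 and 473 TPM after stimulation, and 338, 327 and 331 TPM with TRAIL. Replicate 1 of the stimulated libraries lay within the range of medium and the other pair lay above every other culture library. The log2 fold change of 0.42 (SE 0.17) was not called (adjusted p = 0.0565), and without that library it was 0.63 (adjusted p = 5.63e-07). Its paralogue Eif4g3 was at 71.6 TPM in that library and at 133 and 134 TPM in the other stimulated ones. Across members, the difference of that replicate from the others correlated with gene length (Spearman's rho −0.56, n = 49 genes that share the libraries). Without it, 41 members were called higher and 5 lower on stimulation, and the share of all genes called in that fit was not counted.

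The 4E-binding protein genes differed in direction on stimulation: Eif4ebp1 was called higher, as most factors were, and Eif4ebp2 and Eif4ebp3 were called lower. Eif4ebp1 encodes the binding protein best known as a target of mTORC1, and it lies at chr8:27260329-27276674 of GRCm38 on the plus strand. It was at 13.2 and 16.5 TPM in medium, 238, 185 and 194 TPM after stimulation, and 16.8, 18.3 and 17.1 TPM with TRAIL. The stimulated libraries stood 13.8-fold above medium by the ratio of means, with the largest log2 fold change of the 49 members (3.70, SE 0.13, adjusted p = 1.33e-07). Eif4ebp2, its relative at chr10:61428491-61452661 on the minus strand, was at 281 and 288 TPM in medium, 108, 136 and 131 TPM after stimulation, and 225, 225 and 219 TPM with TRAIL. That order was the reverse: highest in medium, lowest after stimulation, with no overlap of the 3 groups. Its log2 fold change of −1.19 (SE 0.096, adjusted p = 9.91e-06) was −0.79 with median-of-ratios scaling and was still called.

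Eif4ebp3 was expressed at a low level, at 2.09 and 3.71 TPM in medium, 1.53, 1.27 and 1.73 TPM after stimulation, and 1.85, 1.91 and 3.23 TPM with TRAIL. Its call on stimulation (−0.61, adjusted p = 0.0425) was lost with median-of-ratios scaling (adjusted p = 0.219) and without replicate 1 of the stimulated group (adjusted p = 0.0571), without the filter, and without either other stimulated library, medium replicate 2 or TRAIL replicate 1 or 2. In GENCODE vM21, 67.3% of its exon bases are shared with another protein-coding gene on the same strand. Reads within those shared bases cannot be told apart from that gene's. Eif4enif1, which carries eIF4E into the nucleus, was at 82 and 79 TPM in medium, 151, 214 and 224 TPM after stimulation and 90.6, 94.7 and 93.7 TPM with TRAIL. Unlike Eif4ebp2 and Eif4ebp3, it was called higher, by 1.25 (SE 0.15, adjusted p = 1.17e-04).

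**Figure D2:**
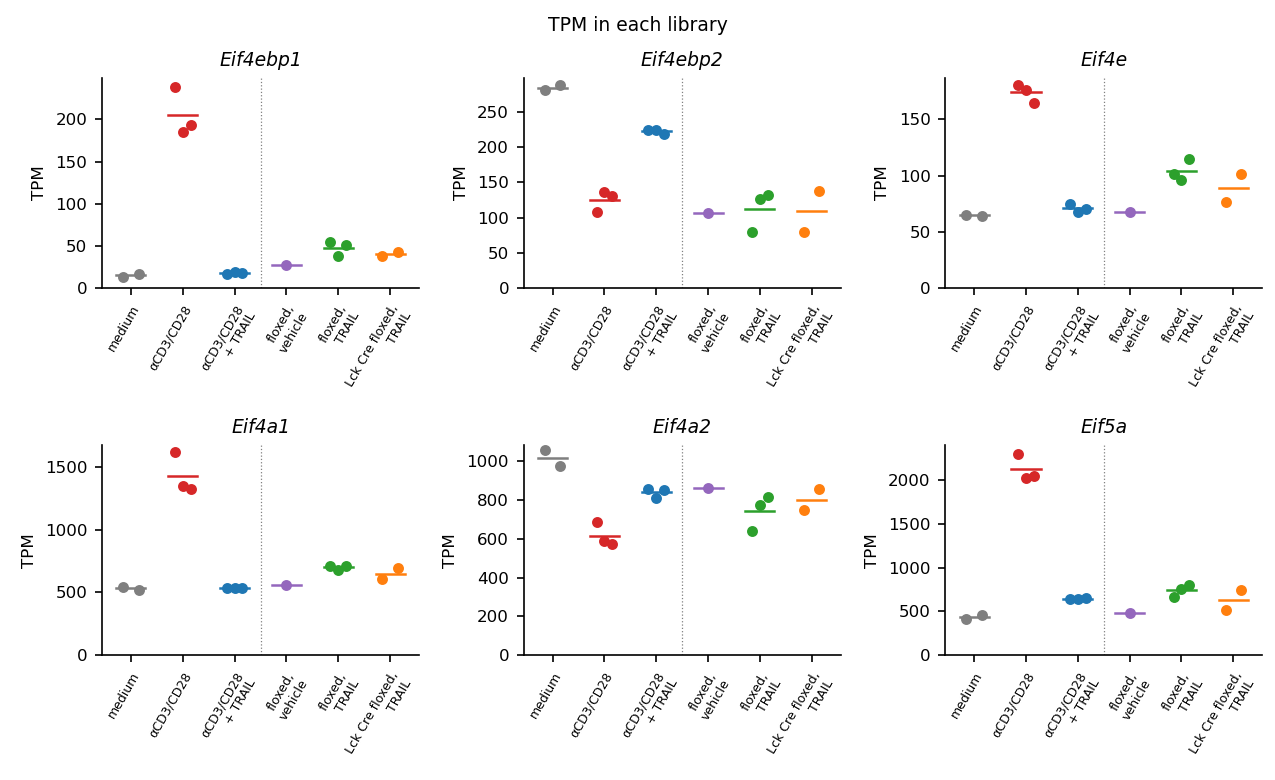
TPM (vertical axes, from 0) of Eif4ebp1, Eif4ebp2, Eif4e, Eif4a1, Eif4a2 and Eif5a in each of the 14 libraries (points), with group means (lines). Groups left of the dotted line are from culture and those right of it from mice, and the 2 tables were made separately. Stimulated libraries are highest for Eif4ebp1, Eif4e, Eif4a1 and Eif5a and lowest among the culture groups for Eif4ebp2 and Eif4a2.

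Eif4e itself rose from 64.7 and 64.3 TPM in medium to 181, 176 and 165 TPM after stimulation, and was at 74.5, 67.8 and 70.1 TPM with TRAIL. The stimulated libraries did not overlap with either other group, and the log2 fold change was 1.42 (SE 0.068, adjusted p = 5.68e-07). In TPM, the 3 binding protein genes together stood at 4.58 and 4.80 per TPM of Eif4e in medium, at 1.92, 1.83 and 1.98 after stimulation, and at 3.27, 3.62 and 3.41 with TRAIL. Within the binding proteins, Eif4ebp1 made up 4.46% and 5.35% of the summed TPM in medium, 68.5%, 57.4% and 59.2% after stimulation, and 6.90%, 7.44% and 7.14% with TRAIL. These ratios of mRNA levels say nothing of the amount or phosphorylation of the proteins.

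Against Eif4e, the log2 ratio of Eif4ebp1 rose by 2.28 on stimulation, from −2.05 ± 0.22 (SD, n = 2) to 0.23 ± 0.16 (SD, n = 3). The log2 ratio of Eif4ebp2 to Eif4e went from 2.12 ± 0.03 to −0.48 ± 0.22 over the same libraries. In both cases the groups did not overlap, and the exact two-sided permutation p was 0.2, the smallest that 2 against 3 libraries can give. When TRAIL was added the same ratios were at −1.97 ± 0.12 and 1.64 ± 0.07 (SD, n = 3), with an exact permutation p of 0.1, the smallest for 3 against 3. None of the 15 such tests over all comparisons had an adjusted p under 0.429. Set beside the 45 tested members other than the 3 binding protein genes and Eif4enif1, whose median log2 fold change on stimulation was 0.78, Eif4ebp1 lay 2.93 above and Eif4ebp2 1.96 below (a difference of −1.96).

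**Figure D3:**
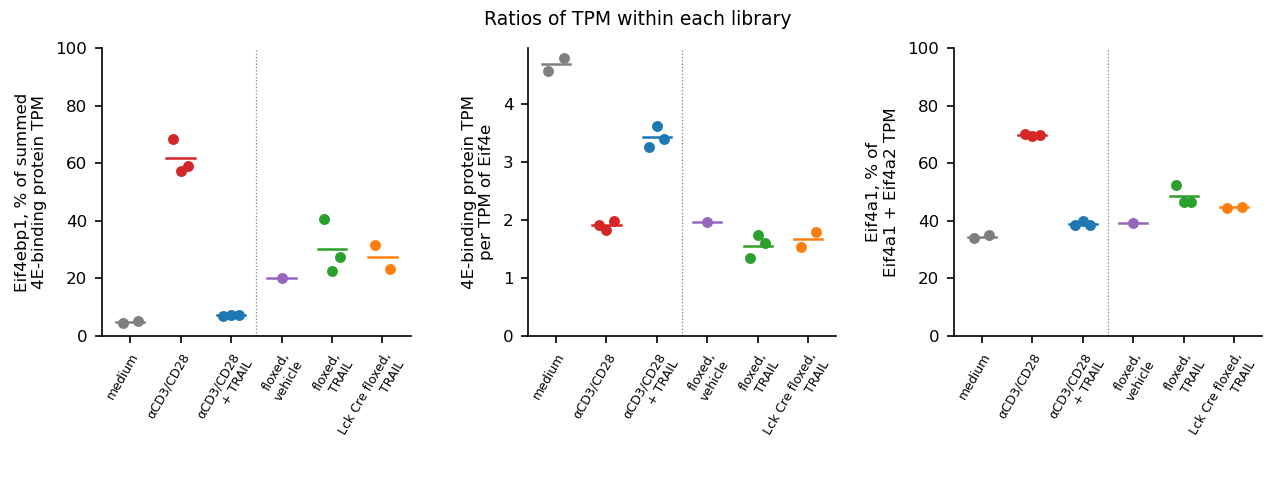
Ratios of TPM within each of the 14 libraries (points; lines are group means): Eif4ebp1 as a percentage of the 3 binding protein genes (left), the summed binding protein TPM per TPM of Eif4e (middle), and Eif4a1 as a percentage of Eif4a1 and Eif4a2 (right). Groups left of the dotted line are from culture. Stimulated libraries reach 57.4% to 68.5% in the left panel and 69.5% to 70.1% in the right panel, above every other library.

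Among the late factors, Eif5a rose the most. It encodes eIF5A, a factor carrying the amino acid hypusine that helps ribosomes through difficult stretches. It was at 411 and 462 TPM in medium, 2302, 2024 and 2046 TPM after stimulation, and 639, 638 and 650 TPM with TRAIL. The 3 groups did not overlap, and the log2 fold change on stimulation was 2.28 (SE 0.079, adjusted p = 1.28e-07). Its paralogue Eif5a2 was at 4.56 to 5.77 TPM in every culture library and was not called (−0.14, adjusted p = 0.227). Eif6, which keeps the ribosomal subunits apart, was called higher by 1.39, and Eif5b, the subunit-joining GTPase, by 0.86.

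Adding TRAIL to the antibodies lowered most of the same factor genes. Of 49 tested members, 36 were called lower and 5 higher than with antibodies alone, against 28.6% lower and 48.1% higher among all tested genes. At an unadjusted p under 0.05 the members numbered 42, beside 78.3% of all genes. The members' median log2 fold change was −0.65, while that of all genes was 0.25. With median-of-ratios scaling, 42 were called lower and 1 higher, beside 40.2% and 36.8% of all genes. This comparison shares the stimulated libraries with the one before, so its values are given beside it and not as separate evidence. The 5 called higher were Eif4ebp2 (0.83, SE 0.086, adjusted p = 4.21e-05), Eif4a2 (0.45), Eif4e3 (0.29), Eif3f (0.26) and Eif5 (0.15). With median-of-ratios scaling, Eif4ebp2 was still called, at 0.51. Eif4a2 was then at 0.13 and not called, Eif4e3 and Eif3f turned to −0.01 and −0.06 without a call, and Eif5 was called lower at −0.17. With the replicate block the calls of Eif4e3 (adjusted p = 0.0627) and Eif5 (adjusted p = 0.0888) were lost.

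The members that TRAIL lowered most were Eif4ebp1 (log2 fold change −3.48, SE 0.12, adjusted p = 1.10e-07), Eif5a (−1.72), Eif2s2 (−1.70), Eif2b3 (−1.67), Eif3c (−1.45), Eif4a1 (−1.41), Eif1a (−1.31), Eif2s1 (−1.31) and Eif4e (−1.29). All 5 genes of the eIF2 group and 13 of 14 eIF3 genes were called lower, and so were 4 of 5 eIF2B genes. The calls of Eif2d (adjusted p = 0.0519) and Eif3h (adjusted p = 0.0541) were lost with the replicate block, and that of Eif3e with the 2 groups alone. Eif2b2 was the eIF2B subunit not called, at −0.09 (adjusted p = 0.173), and with median-of-ratios scaling it was called at −0.41.

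Against medium, cells given antibodies and TRAIL differed little in these genes. Of 49 members, 4 were called higher and 1 lower, beside 7.25% and 9.93% of all genes, and 9 had an unadjusted p under 0.05, beside 31.1%. Eif5a was 0.56 higher (SE 0.079, adjusted p = 0.00255), Eif4e3 0.63 higher (adjusted p = 0.00863), Eif2b2 0.34 higher (adjusted p = 0.00968) and Eif2s2 0.33 higher (adjusted p = 0.0269). Eif4ebp2 was the member called lower, at −0.35 (adjusted p = 0.0409). With the replicate block the calls of Eif4ebp2 (adjusted p = 0.0844), Eif2s2 (adjusted p = 0.0708) and Eif2b2 (adjusted p = 0.0587) were lost, and so they were without either medium library. That of Eif4e3 was lost without medium replicate 1. Eif4e3 encodes a cap-binding relative of eIF4E. It was at 8.64 and 10.3 TPM in medium, 13.1, 11.3 and 12.5 TPM with antibodies, and 13.9, 16.8 and 15.0 TPM with antibodies and TRAIL, so it did not return towards medium. Eif2b2 was at 56.6 and 57.3 TPM in medium, 75.9, 79.6 and 76.2 TPM after stimulation and 74.0, 68.5 and 74.7 TPM with TRAIL. Eif3a, the scaffold subunit of eIF3, was at 344 and 349 TPM in medium, 485, 636 and 628 TPM after stimulation and 421, 387 and 413 TPM with TRAIL, above medium without overlap but not called (0.23, adjusted p = 0.222). Eif4ebp1 differed by 0.22 (adjusted p = 0.297) and Eif4e by 0.13 (adjusted p = 0.234). Replicate 1 of the stimulated group is in neither group compared, and it enters through the shared estimate of spread and the filter on low values. Without it, 17 members were called higher and 4 lower, beside 14.7% and 23.9% of all genes. With median-of-ratios scaling, 10 were called higher and 1 lower, beside 9.27% and 7.47%.

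Most lists of markers of other cells moved opposite to most initiation factors, with sums lower on stimulation and higher again with TRAIL added. The 6 B cell markers summed to 1252 to 1268 TPM in medium, 191 to 236 TPM after stimulation and 1174 to 1201 TPM with TRAIL, and all 6 were called lower on stimulation. The 7 macrophage and monocyte markers summed to 964 to 1029.9, 30.9 to 35.1 and 294 to 351 TPM in the same order, all 7 called lower on stimulation. For the 6 neutrophil markers the sums were 199 to 222, 24.8 to 38.4 and 133 to 154 TPM, with 5 tested and all 5 lower. Erythroid and platelet markers summed to 127 to 139, 10.6 to 15.6 and 30.4 to 36.2 TPM. The 4 markers of CD8 T and NK cells did not follow this order, at 88.4 to 94.6, 91.0 to 96.8 and 99.6 to 103 TPM. Of these 4, 1 was called higher and 2 lower on stimulation. No marker of these lists was at 0 in all libraries of a group. T cell markers summed to 2623 to 2671, 1961 to 2063 and 2213 to 2263 TPM. The activation genes Myc, Il2ra and Cd69 summed to 249 to 270.1, 1846 to 2116 and 366 to 393 TPM. The part of other cells in the changes of the initiation factors was not tested.

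Members with and without an E-box window are set side by side for culture. On stimulation, 7 of 10 members with an E-box window were called higher, 1 lower and 2 not called (median log2 fold change 0.61). Of the 28 members whose windows held none, 21 were called higher, 3 lower and 4 not called (median 0.84). Among all tested genes, 27.5% were called higher and 49.0% lower. Calls among all genes with an E-box window were not counted. The difference between members with and without an E-box window was not tested.

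Regulators of initiation, a list of 37 genes that holds the eIF2 kinases, were called in both directions. On stimulation 11 were called higher and 12 lower, beside 27.5% and 49.0% of all genes. With TRAIL added 11 were called higher and 13 lower, beside 48.1% and 28.6%. With median-of-ratios scaling the counts were 21 higher and 4 lower on stimulation, beside 40.0% and 35.6% of all genes, and 5 higher and 21 lower with TRAIL, beside 36.8% and 40.2%. Pdcd4, which blocks the eIF4A helicase, was at 421 ± 7.61 TPM in medium (SD, n = 2), 119 ± 0.543 TPM after stimulation (SD, n = 3) and 295 ± 6.22 TPM with TRAIL (SD, n = 3), with a log2 fold change on stimulation of −1.81 (adjusted p = 6.74e-08). Eif2ak3, the eIF2 kinase of the endoplasmic reticulum, was lower after stimulation (−1.49, adjusted p = 1.29e-05), and so were Tsc1, a brake on mTORC1 (−1.35), and Impact, an inhibitor of the GCN2 pathway (−0.89). Atf4, the transcription factor whose translation eIF2 phosphorylation favours, was higher (1.76, adjusted p = 1.69e-07), as were the poly(A)-binding protein gene Pabpc4 (1.47) and Larp1, a regulator of mRNAs of the translation machinery (1.25). Each of these 7 genes was called in the same direction with median-of-ratios scaling. Eif2ak2, which encodes the double-stranded RNA kinase PKR, was highest with TRAIL, at 87.9 ± 3.74 TPM beside 43 ± 11.4 TPM with antibodies alone and 31.2 ± 1.36 TPM in medium. It was called higher with TRAIL than in medium by 1.46 (adjusted p = 0.00221).

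Elongation and termination factors were mostly called higher on stimulation and lower with TRAIL. Of 16 tested, 12 were called higher and 1 lower (Mtif3, a mitochondrial initiation factor, −0.52) on stimulation, beside 27.5% and 49.0% of all genes. With TRAIL 12 were called lower and 1 higher, beside 28.6% and 48.1%. With median-of-ratios scaling 15 were called higher and 0 lower on stimulation, beside 40.0% and 35.6% of all genes, and 15 lower and 0 higher with TRAIL, beside 40.2% and 36.8%. Mtif3 was then not called. Eef1e1, a subunit of the aminoacyl-tRNA synthetase complex, had the largest change on stimulation, 2.08 (adjusted p = 2.96e-06). Eef2, the translocase, was at −0.02 (adjusted p = 0.868), and with that scaling it was called at 0.38.

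In the mouse libraries no member was called in either comparison. Between the libraries labelled Lck Cre and the floxed mice given TRAIL, 0 of 49 members passed (0.0% of all 14176 genes), and 0 had an unadjusted limma p under 0.05, beside 0.748% of all genes. The median log2 fold change was −0.15 for the members and −0.04 for all genes. Without Lck Cre replicate 1, whose treatment is uncertain, the members' median was 0.10, and without Lck Cre replicate 2 it was −0.34. For TRAIL against vehicle in floxed mice, again 0 members and 0.0% of all genes passed, with medians of 0.29 and 0.07. Eif4ebp1 was the 1 member with an unadjusted p under 0.05 there (log2 difference 0.78, SE 0.29, adjusted p = 0.972), beside 3.99% of all genes. With 1 vehicle library, the spread in that group was taken to be that of the other mouse groups.

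Eif4ebp1 was at 27.1 TPM with vehicle, 55.0, 37.8 and 50.8 TPM in floxed mice given TRAIL, and 37.4 and 42.6 TPM in the libraries labelled Lck Cre. The vehicle library was the lowest, and the other groups overlapped. Eif4ebp2 was at 106 TPM with vehicle, 79.2, 127 and 132 TPM with TRAIL and 79.4 and 138 TPM with Lck Cre. Its low values were the lane 2 libraries and its high values those of lane 4. Eif4ebp3 stood at 1.15 TPM with vehicle, 1.66, 1.93 and 2.06 TPM with TRAIL, and 1.82 and 1.18 TPM with Lck Cre.

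Eif4e was at 67.9 TPM with vehicle, 101, 95.9 and 115 TPM with TRAIL, and 76.8 and 101 TPM with Lck Cre, a log2 difference of 0.60 between TRAIL and vehicle (SE 0.25, adjusted p = 0.972). Per TPM of Eif4e, the 3 binding protein genes stood at 1.97 with vehicle, 1.34, 1.74 and 1.60 with TRAIL and 1.54 and 1.80 with Lck Cre. All 6 values lay below those of the culture libraries in medium, in a table made separately. Eif4ebp1 made up 20.3% of binding protein TPM with vehicle, 22.7% to 40.5% with TRAIL and 23.4% to 31.5% with Lck Cre.

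Other members with large differences in the mouse comparisons were likewise not called. Eif3b, a core eIF3 subunit, was at 139 TPM with vehicle, 174, 256 and 269.6 TPM with TRAIL and 143 and 249.6 TPM with Lck Cre. Eif4g1 was at 181 TPM with vehicle, 202, 297 and 321 TPM with TRAIL and 171 and 296 TPM with Lck Cre. For both genes the lane 2 libraries were the low ones. Eif5a was at 479.8 TPM with vehicle, 663, 756 and 800.3 TPM with TRAIL and 511 and 749 TPM with Lck Cre. Eif2s3x was at 101 TPM with vehicle, 131, 144 and 155 TPM with TRAIL and 85.1 and 142 TPM with Lck Cre. Its log2 difference of −0.38 (SE 0.26) was the largest of the Lck Cre comparison, where the groups overlapped.

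The genes with the largest difference of their role in the Lck Cre comparison included Eif1ad, Eif2b4 and Eif3d. Eif1ad, a relative of eIF1A, was at 36.9 TPM with vehicle, 38.4, 48 and 53.7 TPM with TRAIL and 29.9 and 49.9 TPM with Lck Cre. Eif2b4 was at 35.1 TPM with vehicle, 37.2, 48.9 and 54.2 TPM with TRAIL and 29.7 and 50.7 TPM with Lck Cre. Both genes again had their low values in lane 2, and the groups given TRAIL overlapped. Eif3d, a subunit that can bind the cap, was at 140.4 TPM with vehicle, 155, 242 and 261 TPM with TRAIL and 126 and 244 TPM with Lck Cre. Eif2b3 was at 12.8 TPM with vehicle, 14.4, 16 and 22.6 TPM with TRAIL and 11.4 and 21.2 TPM with Lck Cre. The order by lane was the same for these genes.

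The helicase genes were not called in mice. Eif4a1 was at 561 TPM with vehicle, 709, 677 and 712 TPM with TRAIL and 605 and 693 TPM with Lck Cre. Eif4a2 was at 864 TPM with vehicle, 643, 773 and 819 TPM with TRAIL and 750.2 and 857 TPM with Lck Cre, and was the most abundant member by mean in all 3 mouse groups. Eif4a1 made up 39.4% of the pair with vehicle, 52.4%, 46.7% and 46.5% with TRAIL, and 44.6% and 44.7% with Lck Cre. The vehicle library had the lowest share. Eif3f was at 168 TPM with vehicle, 100.3, 209 and 215 TPM with TRAIL and 122 and 239.8 TPM with Lck Cre. Within both groups given TRAIL the lane 2 library was the lowest. Eif5 was at 316 TPM with vehicle, 291, 314 and 315 TPM with TRAIL and 300.2 and 315 TPM with Lck Cre, with no separation of groups.

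**Figure D4:**
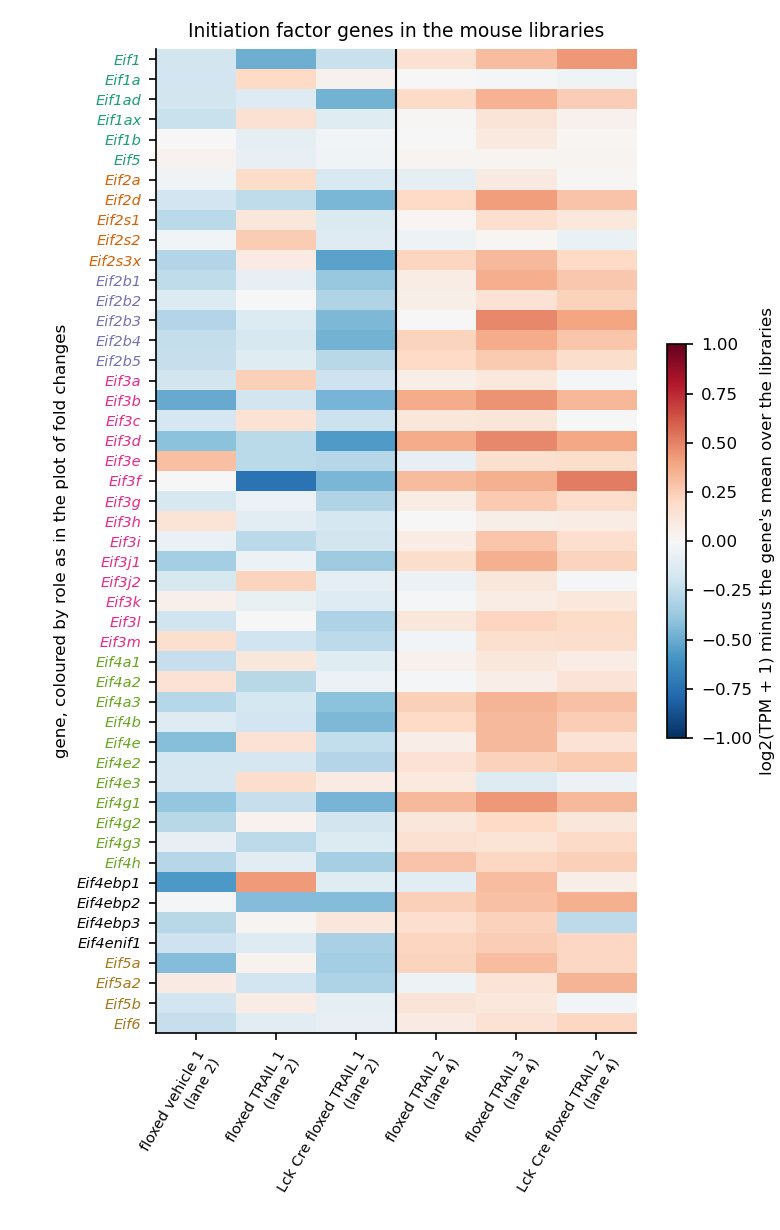
Log2(TPM + 1) of the 49 members (rows, in the order and colours of the plot of fold changes) in the 6 mouse libraries (columns, lane 2 left of the line and lane 4 right of it), each minus the gene's mean over these libraries. Most genes are lower in the lane 2 libraries and higher in the lane 4 libraries, whatever the group.

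Values in mice differed between the lanes, for the members and for all genes. In floxed mice given TRAIL, the mean of the lane 4 libraries lay above the lane 2 library in 38 of 49 members. The median log2 difference was 0.23 for the members and 0.23 for all genes. In the Lck Cre group, with 1 library per lane, the lane 4 library was above in 46 of 49, with medians of 0.45 and 0.30. The share of all genes that were higher in lane 4 was not counted. Within lane 2, the median difference between Lck Cre and floxed mice given TRAIL was −0.23 for the members and −0.05 for all genes. Within lane 4 these medians were −0.02 and 0.04. Within lane 2 the members' median for TRAIL against vehicle was 0.14, from 1 library each, beside −0.04 for all genes. For Eif4ebp1 the difference was 0.99. The lanes also differed in neutrophil markers, which summed to 59690.4, 63903 and 79542 TPM in the lane 2 libraries and to 17715, 11273 and 11639 TPM in those of lane 4. The part of lane and of other cells in the members' values was not tested. With lane as a term in the fit, no member was called in either comparison, and the median for TRAIL against vehicle was 0.08.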

How the data were processed

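Bulk mRNA libraries of mouse CD4 T cells, made with Trizol and the SureSelect XT HS2 kit per the labels' protocols, were analysed from 2 deposited gene tables, 1 for culture and 1 for mice. The values used are TPM, which the authors deposited per gene and library. Per the submitters' processing notes, the tools were bcl2fastq, Trimmomatic 0.36, HISAT2 2.1.0, SAMtools 1.2, StringTie 2.1.4 and DESeq2 1.26.0, with GRCm38.p6. The strand setting of counting is not given in the sources used here.

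Members and gene lists were chosen with earlier results of these data known. Genes averaging 1 TPM or more in an experiment entered the tests, on log2(TPM + 1) with limma 3.58.1 (R 4.3.3; empirical Bayes with trend), over all groups of an experiment, with Benjamini-Hochberg adjustment over all tested genes at 0.05. The fits were tested on simulated data. Ratios to Eif4e were compared by two-sided exact permutation tests (python 3.11.15). Values by library are given for the 4E-binding protein genes, Eif4e, Eif4g1, Eif4a1, Eif2s3x, the member of each role with the largest log2 fold change in a comparison, and called members whose sign was opposite to their role's median in the first 2 culture comparisons; other genes are examples by role. Other settings were another pseudocount (0.1), no filter, median-of-ratios scaling, the compared groups alone, a replicate block, a lane term and leaving out each library. Scaling for the lists of regulators and elongation factors was added after seeing the data. TPM carries counting error: for a gene of 1 kb, 1 TPM stood for 11.4 to 36.2 reads. Promoter windows came from RefSeq on GRCm38.p6. Of the members, Eif1a, Eif2b3, Eif3e, Eif3h, Eif3i, Eif3j2, Eif4a3l2, Eif4e3, Eif4ebp1, Eif4ebp3, Eif4g2 and Eif6 were not matched.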

Additional observations from a re-analysis of the deposited data

How the results depend on the processing

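With median-of-ratios scaling, Eif5 and Eif3f turned to 0.20 and 0.18 on stimulation and to −0.17 and −0.06 with TRAIL added, and Eif4e3 to −0.01 with TRAIL. That scaling gave 1 member called lower on stimulation (median 1.17), 1 called higher with TRAIL added (median −0.97) and 10 called higher for TRAIL against medium. With the compared groups alone, 3 were called lower on stimulation, and 15 higher and 3 lower for TRAIL against medium. Without the variance trend, 0 were lower in that comparison. The number of medium replicate 2 is uncertain, and with the libraries numbered 3 its correlations were −0.085 and 0.072. In culture, replicate numbers as titled did not pair the libraries: correlations of same-numbered libraries ran from −0.134 to 0.078. In mice they were 0.696 and 0.22 for the 2 same-numbered pairs, each of which shares a lane. Floxed TRAIL replicate 3 and Lck Cre replicate 2, which share lane 4 but not a number, were at 0.693. Pairs of these groups from different lanes ran from −0.696 to −0.22. No member was called for Lck Cre with the block. With the replicate block, 3 were called lower on stimulation, 3 higher with TRAIL added, and 2 higher and 0 lower for TRAIL against medium. For the compared groups alone, no variance trend and the replicate block, the shares of all genes called were not counted. Those counts are therefore not results about the members alone. With Eif4e, Eif4e2 and Eif4e3 summed as denominator, the log2 ratio differences of Eif4ebp1, Eif4ebp2 and Eif4ebp3 were 2.87, −2.01 and −1.44 on stimulation and −2.83, 1.49 and 1.04 with TRAIL added, and −0.02 for Eif4ebp3 in mice given TRAIL. In those mice the Eif4ebp3 ratio difference was 0.05 with a pseudocount of 0.1. Relative to the factors, Eif4ebp3 was then at 0.36, and with a lane term Eif4ebp3 was at 0.38 and Eif4ebp2 at −0.51. The causes were not tested.

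Leaving out 1 library at a time gave 33 to 41 members called higher and 3 to 5 lower on stimulation. With TRAIL added it gave 3 to 5 higher and 32 to 39 lower. For TRAIL against medium it gave 1 to 17 higher and 0 to 4 lower. The share of all genes called was counted only for TRAIL against medium without replicate 1 of the stimulated group, given above. The members' median ran from −0.34 to 0.10 for Lck Cre and from 0.25 to 0.34 for TRAIL in mice. For Eif4ebp3 on stimulation the ratio difference ran from −2.33 to −1.72, and its difference from the factors from −1.68 to −1.08. Differences from the factors ran from −2.89 to −2.71 for Eif4ebp1 with TRAIL added, from 0.02 to 0.28 for Eif4ebp1 with TRAIL against medium, and from −0.33 to −0.04 for Eif4ebp2 with TRAIL in mice. For Lck Cre they ran from −0.13 to 0.22 for Eif4ebp2 and from −0.51 to 0.31 for Eif4ebp3, whose ratio difference ran from −0.36 to 0.40. With 1 to 3 libraries a group, exact permutation tests of the ratios could not pass 0.05.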
